A study of Mus musculus with 3 samples.

Results

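The genes described here are 10 keratins, chosen by name: the simple keratins Krt7, Krt8, Krt18 and Krt19, and the stratified keratins Krt4, Krt5, Krt14, Krt15, Krt17 and Krt6a. They are 10 of 27886 genes that at least 1 of 3 single-cell count tables listed. All 4 simple keratins were listed in every table. Of the 6 stratified keratins, the mouse embryonic stem cell (mESC) table listed Krt17 only, the cardiac precursor cell culture (CPCC) table listed Krt14 and Krt17, and the cardiac body (CB) table listed all 6. A table lists only genes that reached 1 count in some cell, so a gene missing from a table is left without a value.

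The cells came from male F1 hybrids of the mouse strains C57BL/6 and CAST/EiJ, and no transgene or mutation is named for any group. The mESCs were grown with LIF and kinase inhibitors that hold them in the undifferentiated state. For both other groups, cell aggregates from differentiating hanging drops were cultured with ascorbic acid. The CPCCs came from such aggregates, dissociated and passaged in EGF and Fgf2, and the CBs were contracting bodies picked under a microscope. The labels call the CB cells mature cardiac cells and the CPCCs cardiac precursor cells. Each group was 1 sample, of 215 mESCs, 175 CPCCs and 232 CB cells, sequenced in 3, 2 and 3 sequencing pools. The study made its mESCs from several single-cell-derived clones, but the tables do not tie a pool to a clone, so the pools are not replicates. With 1 sample per group no difference between groups could be tested, and values per pool stand in the text as a description of spread. The median total was 1528320 counts per mESC, 1437410 per CPCC and 1397870 per CB cell, with 8, 1 and 9 cells under 10000 counts. No column of cells was identical to another.

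Keratins are the intermediate filaments of epithelial cells. A filament is built from pairs of a type I and a type II keratin, and the pairs differ between epithelia: Krt8 and Krt18 are the first to appear in the embryo and typify single-layered (simple) epithelia, Krt19 and Krt7 join them in ducts and linings, Krt5 and Krt14 form the filaments of basal cells in stratified epithelia, Krt15 is another basal keratin, Krt4 belongs to the upper layers of internal stratified linings, and Krt6a and Krt17 are best known from hair follicles, glands and wounded skin. Heart muscle cells use desmin instead, while epicardium and other mesothelia do carry simple keratins. Krt7, Krt8, Krt4, Krt5 and Krt6a are type II, and Krt18, Krt19, Krt14, Krt15 and Krt17 are type I.

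In GRCm38 the members sit in 2 clusters, 6 on chromosome 15 and 4 on chromosome 11. On chromosome 15 lie Krt7 (chr15:101411043-101430313, + strand), Krt6a (chr15:101689910-101694307, - strand), Krt5 (chr15:101707070-101712898, - strand), Krt4 (chr15:101918535-101924735, - strand), Krt8 (chr15:101996698-102004482, - strand) and Krt18 (chr15:102028180-102032027, + strand). Krt18 is the type I gene of that cluster, and only 23.7 kb separate it from Krt8, which it faces head to head. On chromosome 11, all on the - strand, lie Krt15 (chr11:100131758-100135928), Krt19 (chr11:100140810-100148665), Krt14 (chr11:100203162-100207548) and Krt17 (chr11:100256217-100261029), with 4.88 kb between Krt15 and Krt19. Of these neighbours Krt15 is stratified and Krt19 simple.

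RefSeq promoter sequence (GRCm38.p6) was found for 5 of the 10 members. The 3 printed here run from 250 bases before RefSeq's transcription start to 30 bases from it on. They are the partners Krt8 and Krt18, which carried most simple keratin counts in the CPCCs, and Krt5, a basal keratin that only the CB table listed. The regions are chr15:102004313-102004592 (- strand) for Krt8, chr15:102027966-102028245 (+ strand) for Krt18 and chr15:101712876-101713155 (- strand) for Krt5. RefSeq's start lay 140 bases inside the GENCODE gene for Krt8 and 36 bases inside for Krt18. For Krt7 and Krt14 it lay 1360 and 1518 bases inside, so their sequence is not shown. Capitals mark matches to 6 motifs searched on both strands. The TATA box was searched as TATAAA and as ATAAAA, forms that can overlap. The GC box was searched as GGGCGG, AP-1 sites as TGANTCA, AP-2 sites as GCCNNNGGC and grainyhead-like sites as AACCGGTT.
Krt8: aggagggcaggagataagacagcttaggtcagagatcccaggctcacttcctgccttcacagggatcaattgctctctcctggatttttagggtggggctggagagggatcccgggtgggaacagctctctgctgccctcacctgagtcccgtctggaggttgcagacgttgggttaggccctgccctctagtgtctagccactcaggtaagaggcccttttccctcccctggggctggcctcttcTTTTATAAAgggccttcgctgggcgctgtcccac
Krt18: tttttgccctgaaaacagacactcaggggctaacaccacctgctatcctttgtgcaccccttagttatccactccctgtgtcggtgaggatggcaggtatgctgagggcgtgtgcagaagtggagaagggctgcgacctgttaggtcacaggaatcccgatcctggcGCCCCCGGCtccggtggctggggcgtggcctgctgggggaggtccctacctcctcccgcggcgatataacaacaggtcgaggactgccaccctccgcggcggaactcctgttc
Krt5: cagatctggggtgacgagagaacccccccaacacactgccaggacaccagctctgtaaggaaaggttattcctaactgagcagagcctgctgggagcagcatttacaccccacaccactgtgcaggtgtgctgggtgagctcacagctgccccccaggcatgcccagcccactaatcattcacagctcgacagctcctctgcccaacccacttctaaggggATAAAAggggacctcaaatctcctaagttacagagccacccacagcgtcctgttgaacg
The Krt8 sequence held TATAAA from 1 base before RefSeq's start, overlapping reverse-strand matches to TATAAA and ATAAAA. The Krt5 sequence held ATAAAA from 29 bases before the start, and the Krt18 sequence held GCCCCCGGC, a match to GCCNNNGGC, from 83 bases before it. Of 32851 RefSeq promoters of the same length, 13.1% held TATAAA, 17.9% ATAAAA, 34.7% GGGCGG, 7.46% TGANTCA, 15.4% GCCNNNGGC and 0.131% AACCGGTT. A match is a string of letters and not a measured binding site.

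The simple keratins were near the floor in mESCs and high in both differentiated groups, while the stratified keratins reached comparable levels in the CBs only. Summed over cells, the 4 simple keratins made up 10.4 CPM (a gene's counts over all gene counts of the sample, scaled in the usual way) in mESCs, 791 CPM in CPCCs and 1069 CPM in CBs. The stratified keratins listed in each table summed to 2.09, 5.33 and 1116 CPM. The exact Poisson 95% intervals of these sums were at most a few percent wide for the larger values (simple keratins, 787 to 794 CPM in CPCCs and 1066 to 1072 CPM in CBs). They cover counting error only, since reads of the same molecule were not told apart, and the pools spread far more. In CPCCs the simple sum was 1349 CPM in pool 1 and 268 CPM in pool 2. In CBs it was 890, 592 and 1584 CPM in pools 1 to 3, against stratified sums of 961, 1.96 and 2206 CPM. Thus CB pool 2 had the simple keratins almost without the stratified ones.

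**Figure D1:**
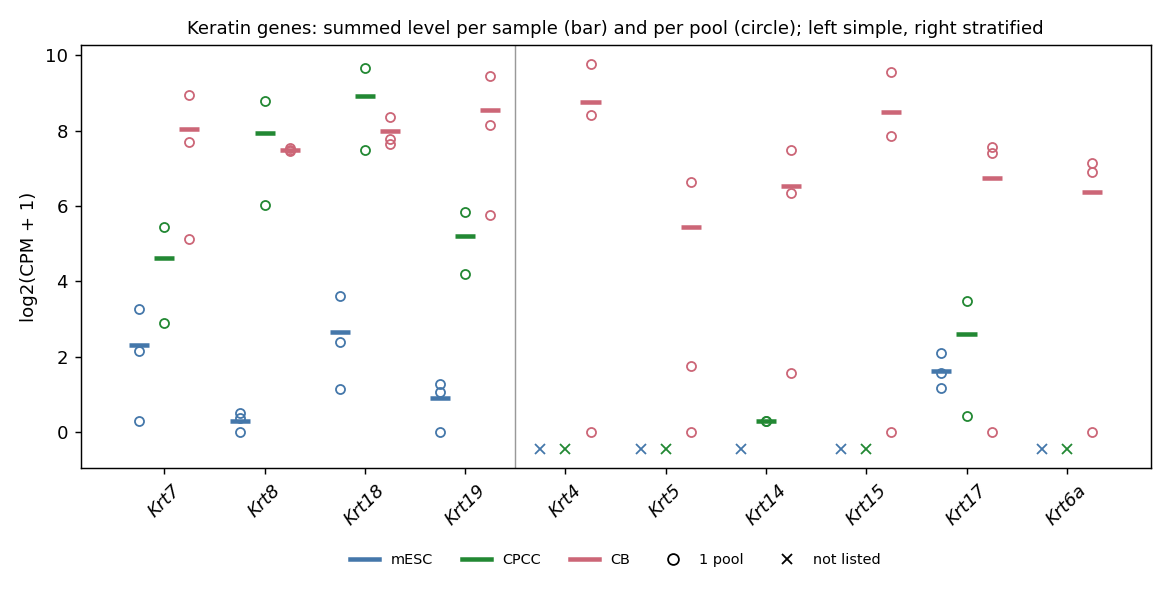
Level of each keratin as log2 of CPM plus 1 in mESCs, CPCCs and CBs, with a bar for the summed cells of a sample, a circle for each sequencing pool and a cross where a table does not list the gene. Krt8 and Krt18 of CPCCs and CBs lie above every mESC pool, and 5 of the 6 stratified keratins have 1 CB pool at 0.

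Among the simple keratins, Krt18, the type I partner of Krt8, had 5.37 CPM in mESCs, with 1.20, 4.28 and 11.3 CPM in the pools. It had 486 CPM in CPCCs, with 813 and 180 CPM in pools 1 and 2. In CBs it had 255 CPM, with 221, 331 and 201 CPM in the pools. The CPCC and CB pools of Krt18 overlapped each other and lay above all mESC pools.

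Krt8 was the lowest member in mESCs, at 0.225 CPM, with 0.416, 0.00728 and 0.310 CPM in the pools. The CPCC value was 244 CPM, with 437 CPM in pool 1 and 63.8 CPM in pool 2. The CB pools were the most even of any member, at 178, 174 and 187 CPM, for a total of 180 CPM. Every CPCC and CB pool exceeded every mESC pool.

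Krt19, a small type I keratin that lacks most of the usual tail, had 0.886 CPM in mESCs, with 0, 1.44 and 1.09 CPM in the pools. The 0 of pool 1 (90 cells) allows a share of cells of up to 3.33%, where the limit for a 0 is taken here and later as 3 counts over the number of cells. In CPCCs Krt19 had 36.2 CPM (56.3 and 17.4 CPM by pool), and in CBs 373 CPM (284, 53.5 and 704 CPM). Krt7, the type II keratin of ducts and linings, had 3.94 CPM in mESCs (0.226, 3.42 and 8.60 CPM), 23.8 CPM in CPCCs (42.3 and 6.48 CPM) and 261 CPM in CBs (207, 33.8 and 493 CPM). For both genes CB pool 2 was the lowest CB pool and overlapped the CPCC pools.

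Among the stratified keratins, Krt17 was the only one that every table listed. It had 2.09 CPM in mESCs (1.94, 1.27 and 3.33 CPM by pool), 5.10 CPM in CPCCs (10.2 and 0.351 CPM) and 107 CPM in CBs (188, 0 and 169 CPM). Krt14 had 0.236 CPM in CPCCs, where 5 cells held 65 counts, and 90.8 CPM in CBs (79.7, 1.96 and 177 CPM). The remaining 4 were listed for the CBs alone. Krt4 had 434 CPM there, with 340, 0 and 874 CPM in pools 1 to 3, and Krt15 had 361 CPM, with 232, 0 and 748 CPM. Krt6a had 81.5 CPM (118, 0 and 140 CPM) and Krt5 42.3 CPM (2.39, 0 and 98.4 CPM). In pool 2, Krt4, Krt5, Krt15, Krt17 and Krt6a had no count in any of 78 cells, which allows a share of cells of up to 3.85%.

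Expression sat in few cells. In CPCCs 4 cells held 50% of the Krt18 counts and 4 cells 50% of the Krt8 counts, and the highest cell reached 19884 CPM of Krt18. In CBs 50% of the counts were in 14 of 112 cells with Krt18 and 14 of 118 with Krt8. For Krt19 they were in 10 of 112 cells and for Krt7 in 9 of 90. For the stratified keratins they were in 8 of 73 cells with Krt15, 6 of 78 with Krt4 and 4 of 34 with Krt6a. The numbers were 3 of 24 for Krt5, 3 of 40 for Krt14 and 3 of 39 for Krt17. A single cell of pool 3 gave 38.0% of all Krt5 counts and 28.6% of all Krt4 counts, with Krt4 at 11029 CPM. Without its top cell, Krt5 had 26.5 CPM in place of 42.3 CPM.

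Levels of different genes can be set side by side only per length, so CPM were divided by the exon length of the transcript with the longest coding part. In CPCCs the order in CPM per kb was Krt18 (338), Krt8 (125), Krt19 (23.0), Krt7 (5.82), Krt17 (3.29) and Krt14 (0.139). The pool ranges of neighbours in this order overlapped, except that Krt7 lay below Krt19 and Krt14 below Krt17 in every pool. In CBs the order was Krt19 (237), Krt15 (212), Krt4 (204), Krt18 (178), Krt8 (92.0), Krt17 (68.7), Krt7 (63.7), Krt14 (53.5), Krt6a (35.8) and Krt5 (19.3). The CB neighbours overlapped over their pools as well, except for Krt8, which lay below Krt18. In mESCs no neighbours were apart, from Krt18 (3.74 CPM per kb) down to Krt8 (0.115 CPM per kb).

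For CPCCs against mESCs, the question was which keratins differ between the undifferentiated and the precursor state. Krt8, Krt18, Krt19 and Krt7 were higher in CPCCs, by 7.65, 6.26, 4.30 and 2.33 on the log2 scale of CPM plus 1, and Krt17 differed by 0.98. The pseudocount of 1 CPM understates the Krt8 difference, whose log2 ratio of plain CPM was 10.1 with a counting interval of 9.77 to 10.4. Of 5 keratins in both tables, 4 were at least 4-fold higher and 0 at least 4-fold lower, against 6.83% and 1.36% of 15471 genes compared. Krt8, Krt18 and Krt19 had every CPCC pool above every mESC pool, a pattern that 22.6% of the genes had. The members' median was 4.30, and that of all genes compared was -0.01.

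For CBs against mESCs, all 5 keratins in both tables were at least 4-fold higher: Krt19 by 7.63, Krt8 by 7.21, Krt7 by 5.73, Krt18 by 5.33 and Krt17 by 5.12 on the same scale. Of 16018 genes compared, 13.4% were that much higher and 3.77% that much lower. Every CB pool exceeded every mESC pool for 4 of the 5, against 29.6% of the genes. The exception was Krt17, through its 0 in CB pool 2. The members' median was 5.73 and that of all genes 0.29.

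For CBs against CPCCs the keratins parted. Krt14, Krt17, Krt7 and Krt19 were at least 4-fold higher in CBs, by 6.22, 4.14, 3.40 and 3.33, while Krt8 and Krt18 had log2 ratios of -0.44 and -0.93. The Krt14 value rests on 65 CPCC counts, of which 1 cell held 50.8%, and as a ratio of means over cells it was 3.65. Thus 4 of 6 were higher and 0 lower, against 5.94% and 2.51% of 16764 genes. Only Krt14 had every CB pool above every CPCC pool, which 20.7% of the genes had. The members' median was 3.36 and that of all genes 0.22. The 2 comparisons with CBs share the CB sample, and both comparisons with mESCs share the mESC sample. CPCC pool 1 decided several of these values: without it, Krt7 differed from mESCs by 0.60 and Krt17 by -1.19, and the CB ratios over CPCCs became 1.48 for Krt8 and 0.50 for Krt18. Without CB pool 3, the ratios over CPCCs were 1.86 for Krt7 and 1.79 for Krt19, and without mESC pool 1 the Krt7 ratio of CPCCs over mESCs was 1.90.

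The share of cells with at least 1 count of the simple keratins differed between groups as well. Krt18 was detected in 37 of 215 mESCs (17.2%, exact Clopper-Pearson 95% interval 12.4 to 22.9), in 111 of 175 CPCCs (63.4%, 55.8 to 70.6) and in 112 of 232 CB cells (48.3%, 41.7 to 54.9). Krt8 was detected in 10 mESCs (4.65%, 2.25 to 8.39), 88 CPCCs (50.3%, 42.6 to 57.9) and 118 CB cells (50.9%, 44.2 to 57.5). Krt19 was found in 10, 52 and 112 cells, and Krt7 in 29, 31 and 90 cells. The mESC pools differed in Krt7, with 2 of 90, 15 of 77 and 12 of 48 cells. The pools of the CBs differed in Krt19, with 21 of 69, 36 of 78 and 55 of 85 cells, and in Krt7, with 24, 14 and 52 cells.

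Of the stratified keratins in CB cells, at least 1 count was found of Krt4 in 78 (33.6%), Krt15 in 73 (31.5%), Krt14 in 40 (17.2%), Krt17 in 39 (16.8%), Krt6a in 34 (14.7%) and Krt5 in 24 (10.3%). These shares depended on the pool. Krt4 was detected in 24, 0 and 54 cells and Krt15 in 19, 0 and 54 cells of pools 1 to 3, whereas Krt8 was detected in 27, 52 and 39. Without pool 3 the shares were 16.3% for Krt4, 12.9% for Krt15 and 3.40% for Krt5. Krt17 was detected in 27 mESCs and 30 CPCCs. Any of the 6 was detected in 114 CB cells (49.1%). After each cell was thinned to 430000 counts, which left out 22 mESCs, 18 CPCCs and 22 CB cells, that share was 37.1%, and the Krt4 share was 23.8%. Cells with few epithelial genes also had counts of stratified keratins. In 144 CB cells with at least 10000 counts and at most 4 of 15 epithelial markers (median 1495450 counts), Krt4 was detected in 31 (21.5%) and Krt15 in 26 (18.1%). In the 57 CB cells with 10 or more of the markers (median 1342070 counts) the shares were 68.4% and 66.7%. The low-marker cells with Krt4 were 10 of 45 in pool 1, 0 of 49 in pool 2 and 21 of 50 in pool 3. In pool 3, Krt15 and Krt19 were each detected in 22 of the 50 low-marker cells, and Krt8 and Krt18 in 5 each. RNA carried over between chambers was not tested.

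A level of 10 CPM in the cell was therefore used as a second limit, in the 207 mESCs, 174 CPCCs and 223 CB cells with at least 10000 counts. This limit was added after the data were seen. Among the 144 low-marker CB cells it was reached by 1 cell for Krt4, 1 for Krt17 and 1 for Krt7, by 4 for Krt19, and by 0 for Krt5, Krt14, Krt15 and Krt6a, which allows a share of up to 2.08%. Krt8 and Krt18 still reached it in 16 and 23 of these cells, and 13 of the 16 with Krt8 were in pool 2. Over all CB cells, the limit was reached by 93 cells for Krt8, 93 for Krt18, 71 for Krt19, 60 for Krt7, 41 for Krt15, 37 for Krt4, 29 for Krt17, 23 for Krt14, 22 for Krt6a and 18 for Krt5. In CPCCs it was reached by 79 cells for Krt18, 55 for Krt8, 41 for Krt19, 25 for Krt7, 20 for Krt17 and 2 for Krt14. In mESCs 30 cells reached it for Krt18, 19 each for Krt7 and Krt17, 5 for Krt19 and 4 for Krt8.

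**Figure D2:**
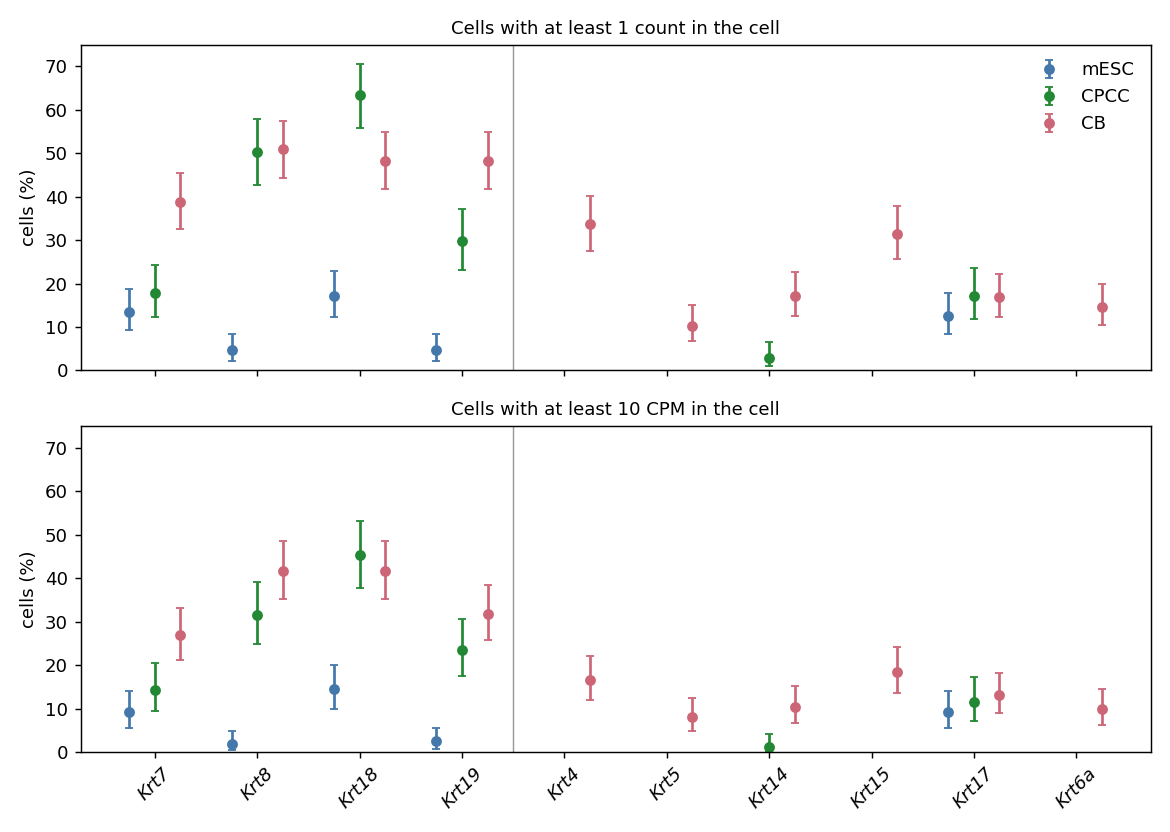
Share of cells (percent) of each group with at least 1 count (upper panel) or at least 10 CPM (lower panel) of each keratin, with exact Clopper-Pearson 95% intervals as bars. With 1 count, Krt8 is at 4.65% of mESCs, 50.3% of CPCCs and 50.9% of CB cells, and Krt4 at 33.6% of CB cells.

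Krt8 and Krt18, which pair in 1 filament, were found together in 4 of 215 mESCs (1.86%), 75 of 175 CPCCs (42.9%) and 93 of 232 CB cells (40.1%). At 10 CPM, 80 CB cells had both, which is 86.0% of the Krt8 cells and 86.0% of the Krt18 cells. In CPCCs 46 cells had both, against 55 with Krt8 and 79 with Krt18. Across cells the Spearman correlation of Krt8 and Krt18 was 0.67 in 174 CPCCs (0.56 and 0.74 within the pools) and 0.80 in 223 CB cells (0.55, 0.88 and 0.84 within the pools). These values describe cells of 1 sample per group and carry no test.

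Co-detection of simple and stratified keratins depended on the limit that called a gene detected. At 10 CPM, every CB cell with Krt5 (18), Krt14 (23), Krt15 (41) or Krt6a (22) also had Krt8, as did 36 of 37 with Krt4 and 28 of 29 with Krt17. The reverse did not hold, since 41 of 93 Krt8 cells had Krt15 and 18 had Krt5. All 60 Krt7 cells had Krt8. At 1 count co-detection was lower, with Krt8 in 50 of 78 Krt4 cells, 48 of 73 Krt15 cells, 29 of 40 Krt14 cells, 25 of 34 Krt6a cells and 66 of 90 Krt7 cells. Of the stratified pairs, Krt4 and Krt15 shared 33 cells (89.2% of Krt4 cells, 80.5% of Krt15 cells), and the classical basal pair Krt5 and Krt14 shared 13 (72.2% and 56.5%). Every Krt5 cell and every Krt6a cell at 10 CPM had Krt15. Cells were caught in chambers that the study inspected for doublets by microscope, and no doublet caller was run on these few cells, so a chamber with more than 1 cell was not tested for.

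**Figure D3:**
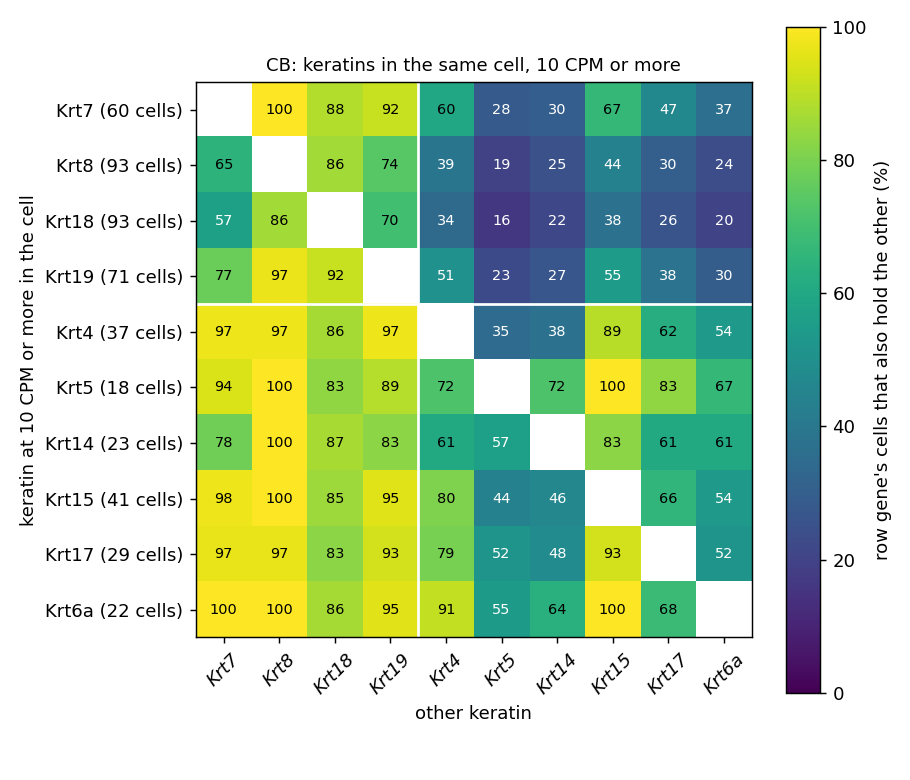
Co-detection of keratin pairs among 223 CB cells at 10 CPM, as the percent of cells with the row gene that also have the column gene. The Krt8 column is at 100% for Krt7, Krt5, Krt14, Krt15 and Krt6a, while the Krt5 column is at most 28.3% for the simple keratins.

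By class, 50 CB cells (22.4%) had any stratified keratin at 10 CPM, and 49 of them had a simple keratin as well. Another 58 cells had simple keratins alone and 115 had no member. The pools differed: the counts of cells with both kinds were 12, 4 and 33 in pools 1 to 3, and those with simple keratins alone were 13, 40 and 5. All 4 simple keratins were present in 50 cells (10, 10 and 30 by pool). At least 3 stratified keratins were present in 33 cells, 7 in pool 1 and 26 in pool 3, and all 33 had Krt8 or Krt18. In CPCCs 8 of 21 cells with a stratified keratin at 10 CPM, mostly Krt17, had a simple one, and 18 of the 21 were in pool 1. This depended on the limit, since at 1 count 23 of 33 such CPCCs had a simple keratin. In mESCs the numbers were 4 of 19 at 10 CPM and 11 of 27 at 1 count, and in CBs 98 of 114 at 1 count.

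In the 49 CB cells with both kinds, the stratified sum exceeded the simple sum in 27 cells. The stratified part of all member counts ran from 1.07% to 92.3% with a median of 51.1%. In the 4 such cells of pool 2, which had Krt14 only, it was at most 22.6%. The balance in pools 1 and 3 had medians of 56.4% and 53.8%. These are sums of counts not divided by length, and the exon lengths of the members ran from 1437 to 4094 bases, so they do not compare transcript numbers between the classes.

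**Figure D4:**
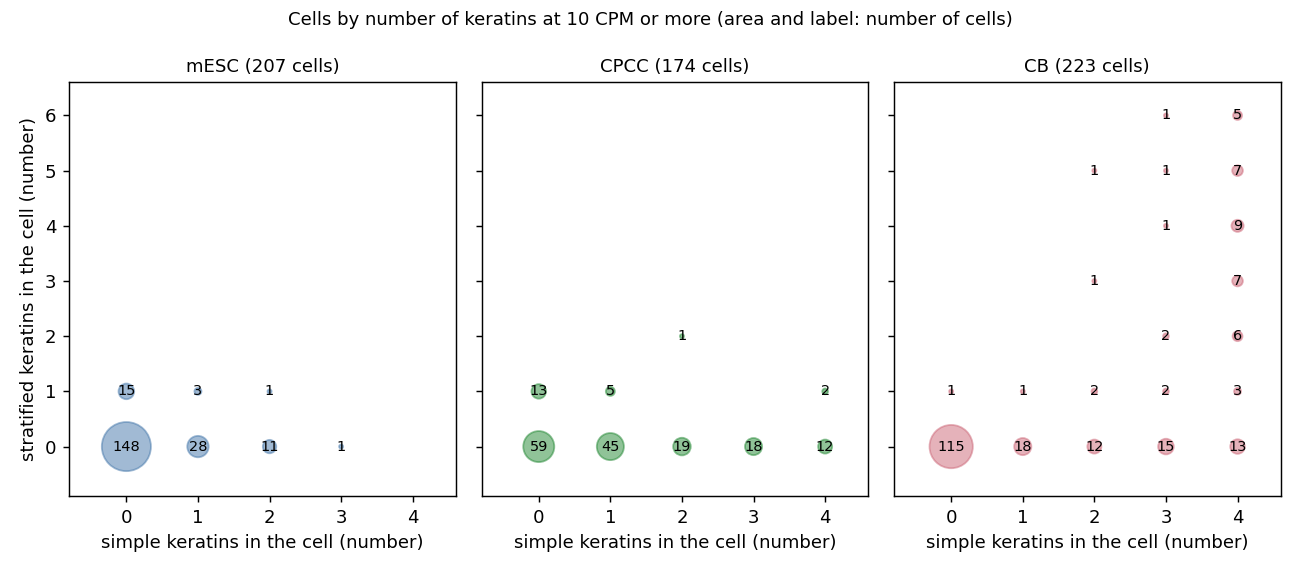
Number of cells by how many of the 4 simple keratins (horizontal) and of the 6 stratified keratins (vertical) reached 10 CPM in the cell, for mESCs, CPCCs and CBs, with the number of cells as label and circle area. CB cells with several stratified keratins sit where all or most simple keratins are present, 5 of them with all 10 members, and 13 of 21 CPCCs with a stratified keratin have no simple one at this limit.

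Filaments need both types, and in CBs most cells with a member at 10 CPM had members of both. At 10 CPM, 86 CB cells had a type I and a type II member, 14 type I alone and 8 type II alone. In CPCCs the counts were 50, 51 and 14, and in mESCs 12, 37 and 10. Only the 10 members were counted. The type I keratin Krt42, not a member, was detected in 131 mESCs and 33 CPCCs. A cell given here as type II alone may therefore hold another type I keratin. The summed CPM of type I members was set against that of type II members across cells. Their Spearman correlation was 0.31 in mESCs, 0.59 in CPCCs and 0.79 in CBs, over 207, 174 and 223 cells of 1 sample per group. Within the CB pools it was 0.66, 0.90 and 0.74.

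The labels were then set beside cell type markers. Pluripotency genes were detected in most mESCs, with Nanog in 208 of 215 cells at 654 CPM, but Nanog was also detected in 111 of 175 CPCCs at 188 CPM, and in 14 CB cells at 0.458 CPM. Klf4, another gene of that list, was higher in CBs (129 CPM) than in mESCs (56.8 CPM). Of 12 cardiomyocyte genes, 10 were at least 4-fold higher in CBs than in CPCCs, against 5.94% of all genes, with a median log2 ratio of 2.82. Cardiac actin Actc1 was at 23.7 CPM in 16 CPCCs and 216 CPM in 35 of 232 CB cells, and the myosin Myh6 at 0.558 CPM in 18 CPCCs and 10.2 CPM in 14 CB cells. Cardiac troponin T (Tnnt2) had the lowest ratio (-1.05), at 84.9 CPM in 38 CPCCs and 40.4 CPM in 34 CB cells. The study also named cardiac fibroblasts, endocardial cells and pericardial cells among its clusters, so a cell of the CBs need not be a cardiomyocyte. Epithelial adhesion genes were common: Epcam was detected in 92 CB cells and Cdh1 (E-cadherin) in 79.

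In CBs, keratins were found more often in the cells with epithelial genes, a list of 15 with no keratin in it. At 1 count, Krt8 was in 57 of the 57 cells with 10 or more markers and in 40 of the 144 with at most 4, Krt19 in 55 against 40, Krt18 in 53 against 42 and Krt7 in 49 against 27. The limit of 10 CPM had been chosen after counts were seen in the low-marker cells, so values at that limit partly restate the choice. At 10 CPM, the 57 cells with 10 or more of the markers included 57 with Krt8, 53 with Krt18, 52 with Krt19, 47 with Krt7, 35 with Krt15, 34 with Krt4, 23 with Krt17, 19 with Krt6a, 18 with Krt14 and 15 with Krt5. The mESC and CPCC tables listed 14 of the 15, and the 22 CB cells and 48 CPCCs with 5 to 9 markers were in neither class. In mESCs, Epcam was detected in 170 cells and Cdh1 in 200. Only 12 mESCs had 10 or more markers and only 4 of 207 had Krt8 at 10 CPM, too few for such a comparison. In CPCCs 33 of 63 high-marker cells had Krt8 at 10 CPM, against 5 of 63 low-marker cells, and Krt18 was in 40 against 13. The low-marker CPCCs were mostly of pool 2 (56 of 63). Within pool 2, Krt8 reached 10 CPM in 20 of 25 high-marker and 3 of 56 low-marker cells, and within pool 1 in 13 of 38 and 2 of 7. Within the CB pools, Krt8 reached it in all 13, 16 and 28 high-marker cells and in 2 of 45, 13 of 49 and 1 of 50 low-marker cells.

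**Figure D5:**
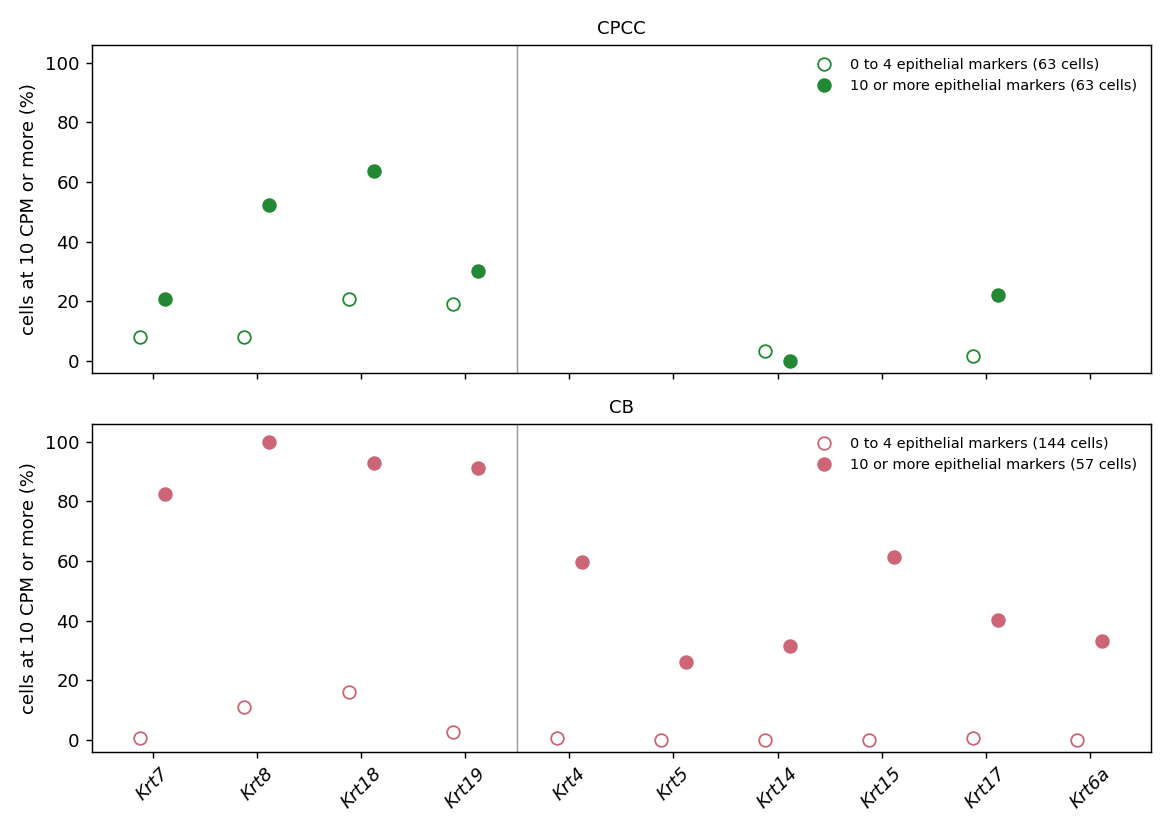
Share of cells (percent) with each keratin at 10 CPM in CPCCs and CBs, among cells with 0 to 4 epithelial markers (open circles) and with 10 or more (filled circles). In CBs every keratin is more frequent in the high-marker cells, with Krt8 at 100% against 11.1%, and in CPCCs this holds for all but Krt14.

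The 53 CB cells in which all 4 simple keratins were detected had Epcam in 51 and Cdh1 in 48, a median of 12 of 15 epithelial markers and a median of 0 of 12 cardiomyocyte markers. Vim, the mesenchymal filament vimentin, was at 98.7 CPM in them and at 1036 CPM in the 41 cells with no member. The fibroblast list summed to 14648 CPM in those 41 cells, and its sum in the 53 cells is not given here. The 41 cells were shallower, with a median of 843494 counts against 1325060 in the 53 cells. By pool, the cells with all 4 simple keratins held different partners. The 11 cells of pool 2 had 12189 CPM of the visceral endoderm list, led by alpha-fetoprotein (Afp) at 4539 CPM, and 125 CPM of the basal and squamous list. The 11 cells of pool 1 and 31 of pool 3 had 153 and 1.25 CPM of the visceral endoderm list. They had 1922 and 2291 CPM of the basal and squamous list, and 2392 and 3160 CPM of the uroplakin Upk1b. Upk1b was at 0 in pool 2 and is also in the mesothelial list, at 659 CPM over all CB cells. Of the same list, Msln, Muc16, Gpm6a, Tbx18 and Upk3b were at 111, 38.8, 28.0, 24.7 and 12.9 CPM. Bnc1, Wt1, Lrrn4 and Cldn15 were at 3.96, 2.42, 2.06 and 2.05 CPM. Over all CB cells the basal and squamous list was led by Perp (236 CPM) and Sfn (221 CPM), which other lists here also hold, and Sfn was detected in 174 mESCs. The basal cell factor Trp63 was at 20.7 CPM, and the squamous genes Ivl and Lgals7 were at 0.721 and 0.343 CPM. None of the 11 cells of pool 2 had a stratified keratin, which with so few cells allows a share of up to 27.3%. The lists were summed after the cells had been chosen by their keratins, and whether the pools held different cultures was not tested.

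Krt8 was also judged against its retained copy. Krt8-ps, a processed pseudogene on chromosome 7 (chr7:23357125-23358069, + strand), was 98.6% identical to Krt8 over 941 bases, and 16.9% of 100-base windows of Krt8 occurred in it. It was counted at 0.0683 CPM in mESCs, 89.2 CPM in CPCCs and 57.6 CPM in CBs, so some of its counts may be Krt8 reads. With its counts added to Krt8, the log2 ratio of CPCCs over mESCs was 8.02 in place of 7.65. Krt6a shared 30.6% of its windows, mostly with Krt6b, and its values are uncertain to that extent. Krt5 shared 2.38%, mostly with Krt6a, and Krt14 2.78% with Krt16, while Krt7, Krt18, Krt19, Krt4, Krt15 and Krt17 shared none. In 50-base windows the shares were larger, at 45.7% for Krt6a, 26.9% for Krt8, 13.9% for Krt14, 8.52% for Krt5 and 3.99% for Krt17, under 1% for Krt7, Krt15 and Krt18, and 0 for Krt19 and Krt4.

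Of other keratin genes, 7 were listed in mESCs, 12 in CPCCs and 12 in CBs. In mESCs the 1 at 10 CPM or more was Krt42, a type I keratin, at 35.4 CPM in 131 cells (43.9, 33.6 and 28.6 CPM by pool), above every member in that group, and it was at 6.07 CPM in CPCCs. In CBs they were Krt75 (30.6 CPM, 26 cells), Krt13 (22.0 CPM, 9 cells) and Krt20 (21.8 CPM, 24 cells). Krt13 is the usual partner of Krt4, and Krt20 is known from gut and urothelium. In CPCCs none of them reached 10 CPM.

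Genes that anchor keratin filaments were counted in the same way. In CPCCs over mESCs, CBs over mESCs and CBs over CPCCs, 6.83%, 13.4% and 5.94% of all genes compared were at least 4-fold higher and 1.36%, 3.77% and 2.51% at least 4-fold lower, with medians of -0.01, 0.29 and 0.22. Of 12 desmosome genes, 1 of 6 in both tables was at least 4-fold higher in CPCCs than in mESCs, 3 of 7 in CBs than in mESCs and 4 of 9 in CBs than in CPCCs, and none was lower. Their median log2 ratios were 0.25, 0.83 and 1.42. Perp, a desmosomal membrane protein, differed most from mESCs, with 2.25, 45.3 and 236 CPM in mESCs, CPCCs and CBs. Desmocollin 2 (Dsc2) differed most between CBs and CPCCs, at 64.5 and 7.33 CPM. By CPM the highest desmosome gene in mESCs was plakoglobin (Jup, 43.3 CPM), with Dsg2 at 41.6 CPM. In CPCCs it was plakophilin 2 (Pkp2, 49.0 CPM), with Jup at 46.9 CPM. Such ranks, here and for the lists below, use CPM not divided by length and do not compare transcript numbers.

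Hemidesmosome genes were at least 4-fold higher for 1 of 7, 3 of 8 and 0 of 8 in the same order, with medians of 0.70, 0.73 and 0.27. Beside the shares of 6.83%, 13.4% and 5.94% over all genes, counts of 1 and 0 in so short a list are no result about it. The largest ratios were those of plectin (Plec, 2.41), of the basal cell collagen Col17a1 (4.25, at 19.4 CPM in 22 CB cells) and of integrin beta 4 (Itgb4, 1.70). By CPM, Itga6 was the highest in mESCs (61.5 CPM) and Cd151 in CPCCs (121 CPM). In CBs Dst (80.9 CPM), Itga6 (80.6 CPM) and Cd151 (79.3 CPM) were close together. Among cytolinkers and keratin-binding genes 0 of 9, 4 of 8 and 3 of 9 were higher, with medians of 0.37, 2.11 and 1.14. They were led by Sfn (1.79), periplakin (Ppl, 4.54, at 0.507 CPM in mESCs and 34.0 CPM in CBs) and Trim29 (5.07, at 0.0616 CPM in CPCCs and 34.8 CPM in CBs). Krtcap2 was the highest of them in mESCs (95.2 CPM), and Sfn in CPCCs (155 CPM) and CBs (221 CPM).

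The 13 genes of other intermediate filaments had 4 higher and 0 lower in CPCCs, 4 higher and 2 lower in CBs against mESCs, and 1 higher and 3 lower in CBs against CPCCs, with medians of 1.42, 0.20 and -0.36. Vim was the highest in every group, at 41.9, 702 and 565 CPM. The lowest ratios were those of 2 neurofilament genes. Nefh had 18.5 CPM in mESCs and 0.101 CPM in CBs, and Nefl had 53.4 CPM in CPCCs and 0.633 CPM in CBs. Of 15 epithelial genes, 4 were higher and 1 lower of 13 in CPCCs, 6 of 14 were higher in CBs against mESCs and 2 of 14 against CPCCs, with medians of 0.46, 1.54 and 0.76. Counts as low as 2 of 14 are close to the 5.94% of all genes that were higher in that comparison. The largest ratios against mESCs were those of Esrp1 in CPCCs (3.45) and Ehf in CBs (5.76). By CPM not divided by length, Elf3 was their highest gene in mESCs (153 CPM), Epcam in CPCCs (230 CPM) and Spint2 in CBs (228 CPM).

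Last, the genes with the pattern most like that of Krt8 and Krt19 across cells were listed by Spearman correlation, without keratins, among genes detected in at least 10% of cells. In 174 CPCCs, over 15399 genes, they were Cldn6 (0.59), Lsr (0.59), Lrp2 (0.55), Bex1 (0.54) and Car4 (0.53) for Krt8, and for Krt19 they included S100a10 (0.51), 2200002D01Rik (0.51), Tpm1 (0.50) and Flnc (0.47). Within the 2 CPCC pools the values for Krt8 were 0.38 and 0.71 for Cldn6, 0.27 and 0.72 for Bex1, 0.36 and 0.70 for Car4, 0.55 and 0.61 for Lsr, and 0.57 and 0.55 for Lrp2. For Krt19 they were 0.56 and 0.47 for S100a10, 0.52 and 0.51 for 2200002D01Rik, 0.63 and 0.35 for Tpm1, and 0.64 and 0.34 for Flnc. Cldn6 and Lsr encode tight junction proteins, and Tpm1 and Flnc bind actin. In 223 CB cells, over 13869 genes, they were Epcam (0.77), Cldn4 (0.73), Cldn7 (0.72), Spint2 (0.72) and desmoglein 2 (Dsg2, 0.72) for Krt8, and Cldn4 (0.75), Cdh1 (0.75), Spint2 (0.72), Cldn7 (0.72) and Ezr (0.72) for Krt19. All of the CB genes were positive within each pool, from 0.53 for Cldn4 with Krt8 in pool 2 to 0.88 for the same pair in pool 3. The cells of a group come from 1 sample, and Krt8 correlated with the total count per cell at -0.19 in CPCCs and 0.11 in CBs.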

How the data were processed

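Single cells were captured on the Fluidigm C1, cDNA was made with SMART-Seq v4, and libraries with Nextera XT. The authors aligned reads with STAR 2.7 (submitters' notes) to mm10 in Partek Flow with an Ensembl annotation. Whether counting used strand, and how shared reads were split, is not given in the sources used here, so overlapping and antisense genes could not be separated. The authors deposited estimated counts per gene and cell for mESCs and CBs (32.0% and 34.6% of values above 0 are not whole) and whole counts for CPCCs, all unscaled. Each table lists only genes with a maximum of at least 1.

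Counts were summed per sample and pool and divided by the gene total. In the CPCC table, 208 rows without a gene name or values, 23 date-like symbols with 0.139% of counts, and 2 columns that name no cell were left out. Pools are the starts of the cell names. Ratios are log2 of CPM plus 1, over genes with at least 1 CPM in either sample. Intervals are exact Poisson or Clopper-Pearson at 95%. No test between groups was possible with 1 sample per group. Correlations used cells of at least 10000 counts. Lengths and positions came from GENCODE on GRCm38, promoters from RefSeq. Shared windows were found in GENCODE transcripts. Thinning rounded counts and drew them without replacement. Scaling alternatives used edgeR 4.0.16 (TMM) and DESeq2 1.42.0 (size factors) in R 4.3.3. The rest used Python 3.11.15, pandas 2.3.3, numpy 2.4.6, scipy 1.17.1 and matplotlib 3.10.9. The steps were tested on simulated data. The members, gene lists and limits were chosen with earlier results of these data known. Named genes are all members, other keratins of at least 10 CPM, and the highest gene or largest ratio of the desmosome, hemidesmosome, cytolinker, other intermediate filament and epithelial lists, plus the 5 genes most like Krt8 and Krt19. The markers named in the check of the labels and in classes of cells (Nanog, Tnnt2, Actc1, Myh6, Epcam, Cdh1, Vim, Afp, Upk1b) were picked with their values seen. Some genes that this rule names are not reported here. No doublet caller was run.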

Additional observations from a re-analysis of the deposited data

How the results depend on the processing

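No paired analysis was possible because the labels give 1 sample per group and no replicate numbers shared between groups. Depth limits the shares of cells more than the sums. Of 480 alternative values 0 changed the sign of a ratio past 4-fold. Of 216 ratios of single members, 213 kept their sign and 211 their side of 4-fold, and 5 fell below it. The summed simple keratins differed by 6.12 (CPCCs over mESCs), 6.55 (CBs over mESCs) and 0.43 (CBs over CPCCs) on the log2 scale. TMM gave 6.36 and 0.23 for the last 2, and DESeq2 size factors gave 6.30 and 0.22, since these scalings lower every CB ratio, by 0.20 and 0.26 against mESCs and by 0.20 and 0.21 against CPCCs. The same weight for every cell gave 6.64, 6.77 and 0.13. A pseudocount of 0.1 CPM gave 6.23 and 6.67, and of 10 CPM 5.29 and 5.72. The ratio of CBs over CPCCs was 0.41 with the cell filter (at least 100000 counts, 2000 genes and at most 20% mitochondrial counts) and 0.46 without mitochondrial and the 20 most abundant genes. Without the top cell the ratios were 6.07, 6.68 and 0.62. Leaving out 1 pool at a time gave 4.56 to 6.89, 5.91 to 7.28 and -0.34 to 1.99, the sign of the last turning without CPCC pool 2 (-0.34) and without CB pool 3 (-0.20), and 3 to 4, 5 and 2 to 4 members past 4-fold. With a pseudocount of 10 CPM, Krt7 of CPCCs over mESCs was 1.28.

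The share of cells with Krt8 and Krt18 was 0.465% of mESCs at 5 counts. In CPCCs it was 30.3% at 5 counts, 26.4% at 10 CPM and 33.1% thinned. Without 1 pool it ran from 1.20 to 2.40% in mESCs, 35.4 to 51.9% in CPCCs and 29.9 to 47.9% in CBs. The share with any stratified keratin was 12.1% of CPCCs at 10 CPM, and in CBs 21.6% at 5 counts, 22.4% at 10 CPM and 37.1% thinned. Without 1 pool it ran from 12.3 to 12.8% in mESCs, 7.29 to 32.9% in CPCCs and 27.2 to 71.4% in CBs. Krt8 with Krt8-ps counts added, the likeness over all cells and the 10 CPM classes were alternatives chosen after seeing the data.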
